A study of Mus musculus with 4 samples.

Results

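The machinery that carries secretory granules to the plasma membrane and fuses them with it was described in pancreatic islets from Tafazzin-knockdown and control mice. It comprises SNARE proteins, synaptotagmins, priming factors, Rab GTPases with their effectors and the exocyst. The 45 genes were chosen by name from the 24940 genes of the deposited table, and all 45 were found there. Both groups were male mice aged 3 to 4 months that ate low-fat chow. One group carried a Tafazzin knockdown and the other was non-transgenic, so that what the transgene does by itself and what loss of Tafazzin does cannot be told apart. Each library held total RNA, depleted of ribosomal RNA, from about 300 islets combined from 2 to 3 mice. There were 2 libraries per group, control replicates 1 and 2 and knockdown replicates 3 and 4. Whether the pools of a group differed in more than the mice is not given in the sources used here, so the p-values apply to these pools. The main limma fit took the spread wholly from the trend over all genes, and not from the pools of each gene. Since islets are a mixture of cells, fewer cells of a type and less RNA per cell cannot be told apart.

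Insulin is stored in dense-core granules that dock at the plasma membrane and fuse when calcium enters the cell. Fusion is driven by a bundle of helices formed by a vesicle SNARE such as VAMP2 and the target-membrane SNAREs syntaxin and SNAP25. Synaptotagmins and DOC2B sense calcium, UNC13 and CAPS proteins prime the granule, complexins clamp the bundle, RAB3 and RAB27 with their effectors tether the granule, and the exocyst tethers vesicles in most secreting cells. NSF and alpha-SNAP, the product of Napa, take spent SNARE bundles apart.

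Levels are in units of reads per 10000000 reads sequenced in the library and are not divided by gene length. The libraries held between 68823160 and 81073502 reads, of which 41.6% to 42.6% lay in the ribosomal RNA precursor row Rn45s. Outside the 13 most abundant rows other than the insulin genes, 4320910 to 4962798 reads were counted per library, and these limit the precision. In control replicate 2 these remaining reads made up 5.33% of the library total, against 6.31% to 6.68% in the other 3 libraries. Most genes had their lowest value there. Taz, the gene of Tafazzin, stood at 23.1 and 15.4 units in control replicates 1 and 2 and at 13.8 and 12.7 in knockdown replicates 3 and 4 (limma adjusted p = 0.529). Taz was thus lower in each knockdown library than in either control, the direction that the labels give, although by limma this was not called. The islet hormones were abundant in every library, with Ins2 at 46108 to 58452 units, Gcg at 5422 to 6652 and Sst at 760.2 to 910.6.

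No exocytosis gene passed the test between knockdown and control islets. Of the 45 genes, 44 had the mean of at least 1 unit needed to enter the test, and Cplx1 did not. By limma 0 of 44 were higher and 0 were lower at an adjusted p of 0.05, where 2.49% of all 13531 genes tested were higher and 0.0443% lower. After median-ratio scaling, which sets the typical gene equal between libraries, limma again called 0 of 44, against 1.09% of genes higher and 0.155% lower. The edgeR test on whole reads called 0 of 44, against 1.29% higher and 0.148% lower, and DESeq2 0 of 44, against 0.606% higher and 0.0739% lower. Unadjusted p-values under 0.05 were found for 2 of the 44 genes by limma, 3 after scaling, 3 by edgeR and 2 by DESeq2, which is 4.55%, 6.82%, 6.82% and 4.55%. Over all genes tested these shares were 10.3%, 10.2%, 10.3% and 5.39%. The genes under that p differed between the tests. By limma they were Rab27b and Exoc1, both higher in the knockdown. After scaling they were Syt13, Rab3d and Sytl4, and by edgeR Doc2b, Rab3d and Exoc5, all lower. With so few genes called in the whole table, 0 of 44 is close to the background share.

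Log2 fold changes are knockdown over control on the log2(value + 1) scale, and are given relative to the median of all tested genes, which was 0.17 on the deposited values. The p-values of limma refer to the change before this shift. The median over the 44 genes was -0.06 (-0.07 after scaling), with 28 genes below and 16 above the median of all genes. After quantile normalization, and at a pseudocount of 5, 24 were below and 20 above. Without control replicate 1 the split was 23 and 21, and without control replicate 2 it was 29 and 15. Between libraries of a group the median of these genes had a standard deviation of 0.054. The plot of fold changes shows how wide the 95% intervals are. The median standard error was 0.24, so that the typical interval reached a 1.39-fold difference on either side of the estimate, and 1.24-fold after scaling. Doc2b was the only one of the 44 genes whose interval on the deposited values left out 0. After scaling its interval, from -1.76 to 0.03, held 0. On that scale the intervals of 3 other genes, Syt13, Rab3d and Sytl4, lay below 0.

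**Figure D1:**
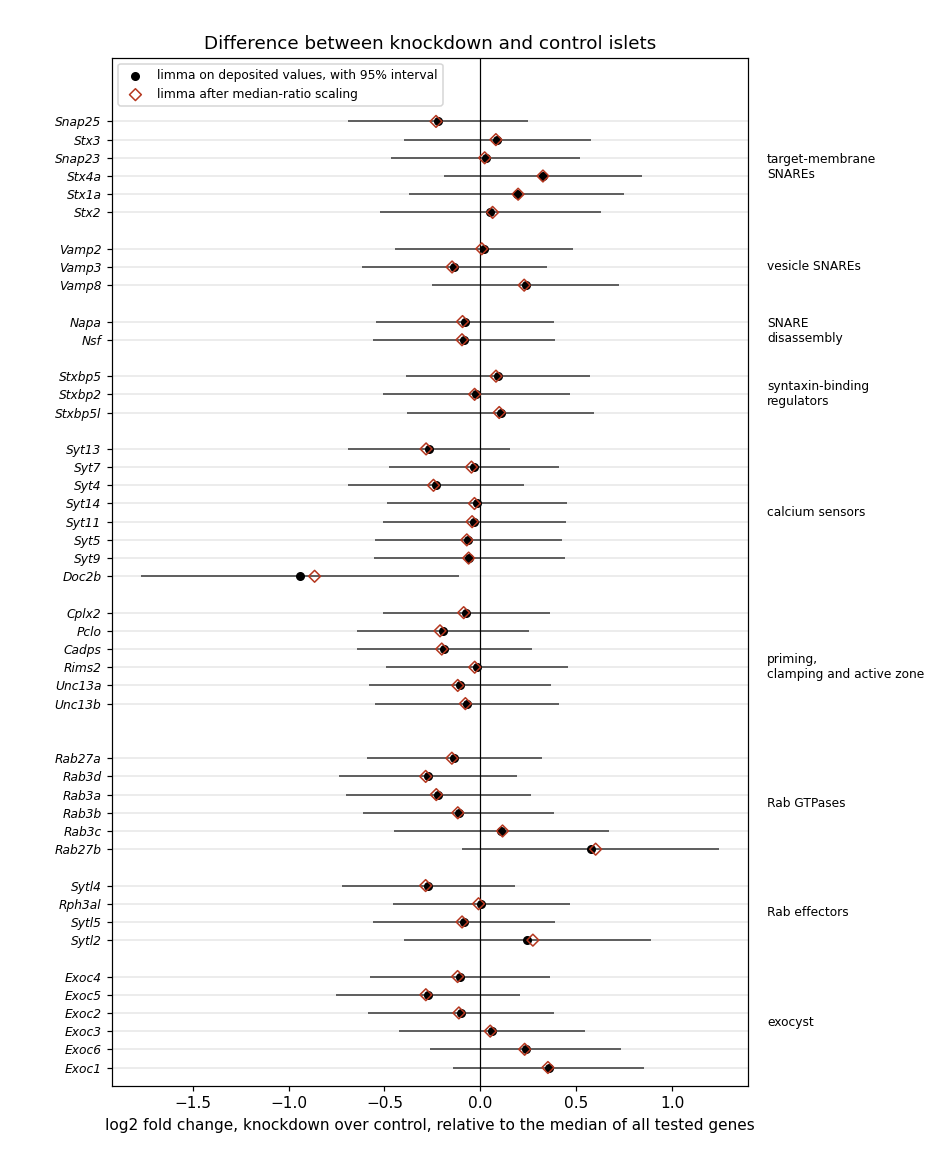
Log2 fold change of the 44 tested exocytosis genes, knockdown over control, relative to the median of all tested genes, grouped by role. Black points with lines are limma estimates with 95% intervals and open diamonds the estimates after median-ratio scaling. Most genes lie near 0 with intervals that span it, and Doc2b stands apart at -0.94.

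None of the 9 vesicle and target-membrane SNAREs was called, and Vamp2, Snap25 and Stx1a overlapped between the groups on the deposited values. Vamp2, the main vesicle SNARE of insulin granules, was read at 107 and 80.9 units in the control pools and 101 and 111 in the knockdown pools. Its group ranges overlapped, and its log2 fold change was 0.02 with an interval from -0.44 to 0.48. Snap25, the neuroendocrine target-membrane SNARE, was read at 85.7 and 67.8 units in the control pools and 76.3 and 70.7 in the knockdown pools, with both knockdown values inside the range of the controls. Its log2 fold change was -0.22 (limma adjusted p = 0.978), and after scaling both knockdown values, 70.8 and 67.0, lay below both controls, 82.7 and 80.0. Stx1a, a syntaxin of regulated secretion, gave 5.52 and 6.41 units in the control pools and 11.5 and 5.34 in the knockdown pools. Knockdown replicate 3 alone was high for Stx1a, on 88 reads against 38, 52 and 42 in the others. Without that library the log2 fold change of Stx1a turned from 0.19 to -0.29.

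Broadly expressed SNAREs had estimates above the median of all genes, except Vamp3, and Stx2 fell just below it after quantile normalization. The estimates of Snap23 (0.03 ± 0.25 SE) and Stx2 (0.05 ± 0.29 SE) lay near 0. With a library left out, both changed sign. Stx4a, a syntaxin of the plasma membrane in many cell types, was read at 9.15 and 8.76 units in the control pools and 12.4 and 13.6 in the knockdown pools (log2 fold change 0.33 ± 0.26 SE, limma adjusted p = 0.538). Vamp8, the vesicle SNARE of zymogen granules and endosomes, was read at 25.0 and 23.2 units in the control pools and 34.7 and 29.8 in the knockdown pools (0.24 ± 0.25 SE, limma adjusted p = 0.641). In both genes the 2 groups did not overlap, also after scaling. These are the genes among the SNAREs whose groups stood apart on both scales. Stx3 stood at 26.0 and 24.3 against 29.6 and 30.8 units and Stx2 at 5.81 and 5.43 against 6.78 and 6.61. Both of these syntaxins, of which Stx3 serves apical and granule fusion in secretory epithelia, overlapped between the groups once scaled. Snap23, the ubiquitous relative of Snap25, ranged from 16.5 units in control replicate 2 to 26.4 in control replicate 1, with 26.3 and 22.0 in the knockdown libraries between them. Vamp3, the vesicle SNARE of recycling endosomes, ranged from 36.6 to 42.2 units and its groups overlapped.

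The syntaxin-binding regulators and the disassembly factors also differed by less than their intervals. Stxbp2, which encodes MUNC18-2, gave 30.8 and 29.1 units in the control pools and 30.5 and 36.1 in the knockdown pools. Stxbp5, which encodes the inhibitor tomosyn, was read at 56.1 and 35.4 units against 52.3 and 54.7. Control replicate 2 was the low library there. Without control replicate 1 Stxbp5 was called higher, at a log2 fold change of 0.28 (limma adjusted p = 0.0227), and without control replicate 2 its log2 fold change was -0.10. Without control replicate 1 limma called 3 of the 44 genes higher, Stxbp5, Syt14 and Exoc1, where it called 9.29% of 13611 genes. Stxbp5l, the second tomosyn gene, stood at 26.9 and 19.7 against 28.8 and 27.2 units. Nsf, the ATPase that separates SNARE bundles, gave 68.0 and 55.0 units in the control pools and 64.7 and 64.9 in the knockdown pools, and its adaptor gene Napa 117 and 97.9 against 106 and 122.

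None of the 7 synaptotagmins and Doc2b, plotted as calcium sensors although some bind little or no calcium, was called, and 8 of 8 estimates were under the all-gene median, a count that was 8 of 8 after median-ratio scaling, 5 of 8 after quantile normalization, 6 of 8 at a pseudocount of 5 and 4 of 8 without control replicate 1. Syt13, a synaptotagmin with little calcium binding and the gene with the most reads of the 45, was read at 727 and 539 units in the control pools and 565 and 602 in the knockdown pools. On the deposited values the knockdown libraries lay between the controls, with a log2 fold change of -0.27 ± 0.22 SE (limma adjusted p = 0.952). After scaling Syt13 stood at 701 and 636 units in the control pools and 524 and 569.7 in the knockdown pools, a log2 fold change of -0.28 with an interval from -0.51 to -0.06 (limma adjusted p = 0.302). Syt7, the high-affinity calcium sensor of insulin granules, gave 274 and 209.8 units against 259 and 267. Its log2 fold change was -0.03, with an interval from -0.48 to 0.41. Syt4, a synaptotagmin of maturing granules, gave 153 and 111 units against 113 and 137. Syt4 overlapped on the deposited values and was lower in both knockdown libraries after scaling, at 105 and 130.2 against 148 and 131 units. The closeness of 130.2 and 131 shows how little separated those groups. Syt5, Syt9, Syt11 and Syt14 had log2 fold changes from -0.06 to -0.02. Syt14, a calcium-independent member, was read at 93.6 and 55.0 units in the control pools and 75.6 and 83.7 in the knockdown pools. It was called higher without control replicate 1, at a log2 fold change of 0.22 (limma adjusted p = 0.0221), and was singled out after its values were seen, as were Doc2b and Pclo.

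Doc2b, a calcium sensor with a pair of C2 domains, had the lowest estimate of all 44 genes and rested on a single library. It was read at 5.09 and 1.23 units in the control pools and at 1.30 and 1.02 units in the knockdown libraries, from 35, 10, 10 and 8 reads. Only control replicate 1 was high, and the other 3 libraries held nearly the same number of reads. The log2 fold change was -0.94 with an interval from -1.77 to -0.11 (limma adjusted p = 0.547), and -0.35 without control replicate 1. The edgeR test gave -1.53 (adjusted p = 0.375). Doc2b shares 252 bases at its start with the opposite-strand row Gm12339, which had a mean of 70.8 units, and the counting of both rows seems to have ignored strand.

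Of the priming, clamping and active-zone genes, 6 of 6 tested were below the all-gene median, as they were after median-ratio scaling but 4 of 6 after quantile normalization, 5 of 6 at a pseudocount of 5 and 3 of 6 without control replicate 1. Cplx2, the complexin of islet cells, gave 398 and 325 units in the control pools and 384 and 382 in the knockdown pools. Its values after scaling were 384 and 383 against 357 and 362, a log2 fold change of -0.09 with an interval from -0.31 to 0.13. Cplx1, the complexin of many central neurons, had 0 and 4 reads among control pools and 8 and 2 among knockdown pools. The 0 in control replicate 1 allows up to 0.436 units, the worth of 3 reads, and the mean of Cplx1 per kb of gene span was 0.0142 units against 29.6 for Cplx2. Pclo, which encodes the scaffold piccolo, was read at 269.7 and 156 units in the control pools and 206 and 196 in the knockdown pools. The control values of Pclo spread more than the groups differed. Without control replicate 2 Pclo was called lower, at a log2 fold change of -0.45 (limma adjusted p = 0.0330), where 0.433% of genes were called lower, and without control replicate 1 it stood at 0.06. Cadps, which encodes the priming factor CAPS1, gave 159 and 119 units against 128 and 143. Unc13a and Unc13b, the MUNC13 priming genes, stood at 65.4 and 48.1 against 56.5 and 60.5 units and at 48.5 and 35.8 against 43.6 and 45.8 units. Rims2, a scaffold that binds RAB3, gave 70.5 and 47.5 against 68.2 and 60.4 units.

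**Figure D2:**
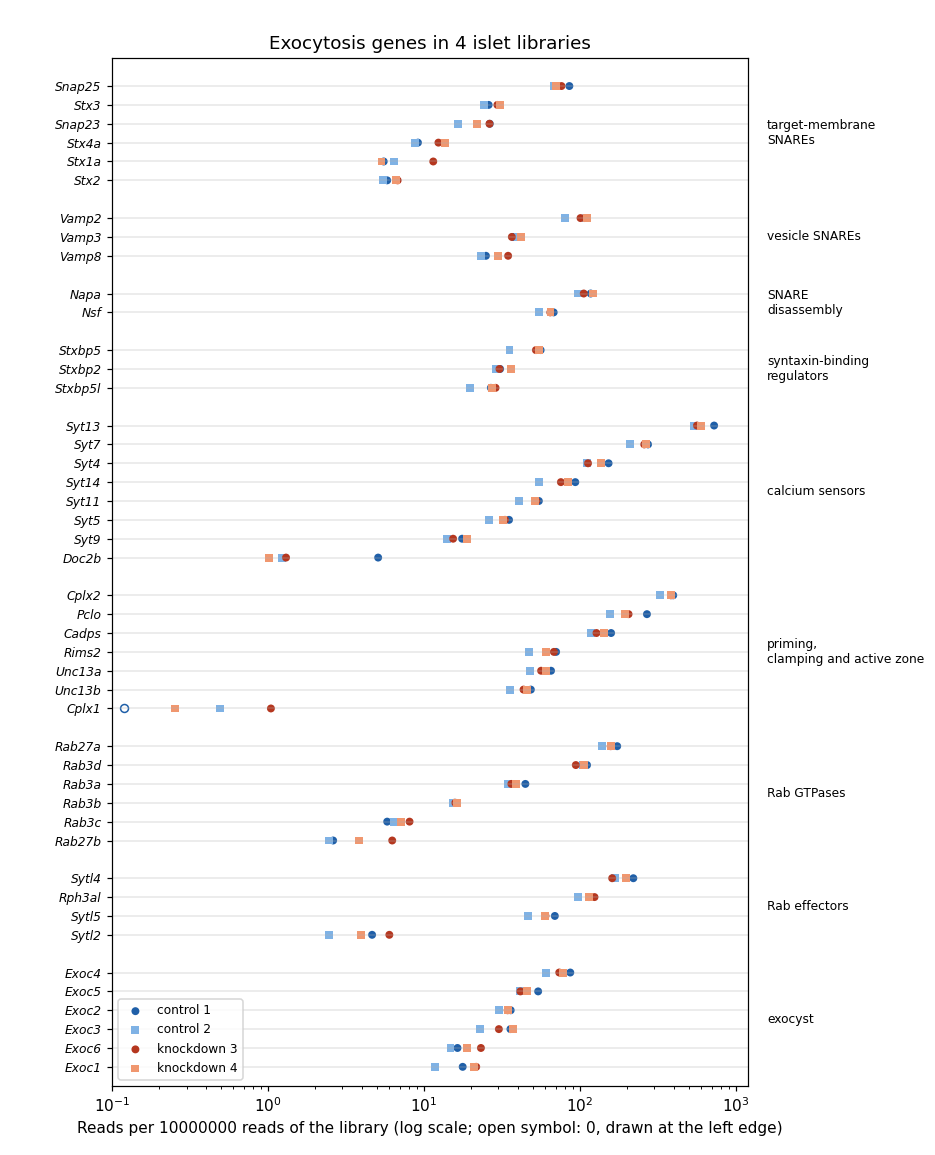
Reads per 10000000 reads of the library for the 45 exocytosis genes on a logarithmic axis, 1 point per library, grouped by role. Levels run from Cplx1, at 0 to 1.04 units, to Syt13, at 539 to 727 units, and within most genes the control replicate 2 point is the leftmost.

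Among the Rab GTPases the less abundant RAB27 gene had the largest positive difference of the 45 genes. Rab27b was read at 2.62 and 2.47 units in the control pools and 6.26 and 3.82 in the knockdown pools, from 18, 20, 48 and 30 reads. Both knockdown libraries lay above both controls, also after scaling, and knockdown replicate 3 was the highest. The log2 fold change was 0.57 ± 0.34 SE (limma adjusted p = 0.374 at an unadjusted p of 0.0304), and 0.29 without knockdown replicate 3. With a pseudocount of 5 it was 0.28, which shows how much the size depends on the pseudocount at so few reads. Rab27a, the RAB27 of beta cell granules, stood at 174 and 138 against 158 and 159 units, with a log2 fold change of -0.14. Rab3d, a Rab of secretory granules in exocrine and endocrine cells, was read at 111 and 105 units in the control pools and 94.3 and 107 in the knockdown pools. After scaling Rab3d stood at 107 and 124 against 87.5 and 101 units (-0.29, interval from -0.55 to -0.02, limma adjusted p = 0.403). Rab3a, the brain and endocrine RAB3, stood at 44.8 and 34.4 against 36.4 and 39.2 units. Rab3b stayed between 15.3 and 16.3 units in all 4 libraries, and Rab3c between 5.81 and 8.09.

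Of the Rab effectors, Sytl4, which encodes granuphilin, the docking factor of insulin granules, was read at 221 and 168 units in the control pools and 161 and 199 in the knockdown pools. The groups of Sytl4 overlapped on the deposited values. After scaling they stood at 213 and 199 against 149.7 and 188 units (log2 fold change -0.29, interval from -0.54 to -0.03, limma adjusted p = 0.373). Rph3al, which encodes the effector NOC2, gave 114 and 97.6 units against 124 and 114, with a log2 fold change of 0.00. Its row shares 22921 bases with Gm12339 on the opposite strand, so that its reads and those of that noncoding RNA are mixed in part. Sytl5 stood at 69.2 and 46.5 against 60.3 and 59.9 units. Sytl2, an effector of epithelial and exocrine secretion, was low at 4.65 and 2.47 against 6.0 and 3.94 units, and its groups overlapped.

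The 6 exocyst genes split evenly around the median of all genes, 3 above and 3 below, on the deposited and on the median-ratio scale. Exoc1, which encodes SEC3, was read at 17.7 and 11.8 units in the control pools and 21.6 and 20.9 in the knockdown pools, from 122, 96, 166 and 164 reads. Both knockdown libraries lay above both controls, also after scaling (20.1 and 19.8 against 17.1 and 14.0 units). The log2 fold change was 0.36 ± 0.25 SE (limma adjusted p = 0.432 at an unadjusted p of 0.0398), and Exoc1 was called higher without control replicate 1 (limma adjusted p = 0.0215). Exoc6, which encodes SEC15, stood at 16.4 and 14.8 against 23.2 and 18.8 units (0.24 with an SE of 0.25, limma adjusted p = 0.654). Exoc5, the subunit SEC10, went the other way, at 54.1 and 41.1 against 41.6 and 45.8 units (-0.27 with an SE of 0.24, limma adjusted p = 0.959). After scaling Exoc5 was lower in both knockdown libraries, at 38.6 and 43.4 against 52.1 and 48.4 units. Exoc2, Exoc3 and Exoc4, which encode SEC5, SEC6 and SEC8, had log2 fold changes from -0.11 to 0.06 and overlapping groups on the deposited values. The 6 estimates thus lay on both sides of the all-gene median, and none of the 6 genes passed the test.

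Counted over all roles, the 2 knockdown libraries both lay above both controls in 10 of 44 genes and below both in 0. Of all genes tested 34.9% lay above and 4.49% below. After median-ratio scaling 5 of 44 were above, against 20.4% of all genes, and 13 of 44 were below, against 20.0%. The 5 genes above on both scales were Stx4a, Vamp8, Rab27b, Exoc1 and Exoc6. The 13 genes below after scaling were Snap25, Syt4, Syt13, Doc2b, Cplx2, Cadps, Rab3a, Rab3d, Rab27a, Sytl4, Exoc2, Exoc5 and Nsf, and none of them passed the test. Syt7, Pclo, Rph3al and Vamp2 overlapped after scaling.

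Sequences just before the start sites are shown for Stx4a, Vamp8, Exoc1 and Exoc6, from the promoter table of RefSeq on GRCm38.p6. The groups of these genes stood apart both on the deposited values and after median-ratio scaling. Rab27b also stood apart on both scales but is not shown. Whether it has an entry in that table is not given here. Each sequence is 120 bases on the gene's own strand, 5′ to 3′, and ends at the base before the start site. Capitals mark the GC box, GGGCGG, and the CCAAT box, searched on both strands, so that their reverse complements are also in capitals. Neither motif overlaps the other in its letters, and matches that touch or overlap run together.
Stx4a (chr7:127841688-127841807, plus strand): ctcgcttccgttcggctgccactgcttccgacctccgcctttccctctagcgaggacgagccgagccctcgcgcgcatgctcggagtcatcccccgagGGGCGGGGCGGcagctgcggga
Vamp8 (chr6:72390668-72390787, minus strand): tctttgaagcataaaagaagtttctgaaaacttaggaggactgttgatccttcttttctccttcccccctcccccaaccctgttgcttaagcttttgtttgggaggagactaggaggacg
Exoc1 (chr5:76529191-76529310, plus strand): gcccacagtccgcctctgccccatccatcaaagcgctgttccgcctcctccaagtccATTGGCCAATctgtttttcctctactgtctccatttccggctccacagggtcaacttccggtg
Exoc6 (chr19:37550298-37550417, plus strand): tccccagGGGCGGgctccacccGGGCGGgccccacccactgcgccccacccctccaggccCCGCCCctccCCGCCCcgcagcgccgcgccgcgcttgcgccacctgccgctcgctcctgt
Neither motif was found in all 4 stretches. Exoc6 held 4 GC boxes and Stx4a held 2 overlapping ones, Exoc1 held 2 adjoining CCAAT boxes on opposite strands, and Vamp8 held neither motif and had a G and C content of 45.8%, against 83.3% for Exoc6. In the whole 300-base entries, from 250 bases before the start to 50 from it on, 22 of the 34 members with an entry held GGGCGG, which is 64.7%. Over the 10522 tested genes with an entry the share was 64.5%, and over all 32851 entries 35.7%. CCAAT was found in 10 of 34 members, or 29.4%, against 38.1% of tested genes and 37.4% of all entries. These are descriptions of letters in a window, and the exocytosis genes held the GC box about as often as other genes expressed here.

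Levels of different genes can be compared only per length, and the length column is the genomic span with introns, so that genes with long introns appear low. Per kb of span, the mean over the 4 libraries was highest for Cplx2 at 29.6 units, Vamp2 at 26.0, Syt13 at 14.85 and Syt4 at 13.4. Rab3d at 9.76 and Rab3a at 9.65 followed. The lowest were Cplx1 at 0.0142, Rab27b at 0.0233 and Rab3c at 0.0302 units per kb. Within the SNAREs the order per kb was Vamp2, Vamp8 at 5.17, Vamp3 at 3.66, Stx4a at 1.53 and Snap25 at 1.09, followed by Snap23, Stx3, Stx1a and Stx2 at 0.691, 0.625, 0.260 and 0.256. The last 2 values are closer to each other than the spread of Stx1a between the knockdown libraries.

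Ratios between related genes within a library depend little on how libraries are scaled, and were compared for 14 pairs that mostly set a broadly expressed gene over its neuroendocrine relative. The ratio is of log2(value + 1) levels without correction for length, so only its difference between the groups is read. In 3 pairs both knockdown libraries lay above both controls, in 1 pair below, and in 10 the groups overlapped. Snap23 over Snap25 stood at -1.66 and -1.97 in the control pools and -1.50 and -1.64 in the knockdown pools, a difference of 0.25. Rab27b over Rab27a stood at -5.60 and -5.33 in the control pools and -4.45 and -5.05 in the knockdown pools, a difference of 0.71. Unc13b over Unc13a moved least among the pairs that did not overlap, from -0.42 and -0.42 to -0.37 and -0.40. Syt4 over Syt7 was lower, at -0.84 and -0.91 against -1.19 and -0.95. Vamp8 over Vamp2 (difference 0.22), Stx4a over Stx1a (0.14) and Rab3d over Rab3a (-0.05) overlapped between the groups. The exact two-sided permutation test over 2 against 2 libraries cannot go below p = 0.333, which was the p of each pair that did not overlap, and every value adjusted over the 14 pairs was 1.0. The pairs therefore carry no test that could pass, and their values are a description.

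**Figure D3:**
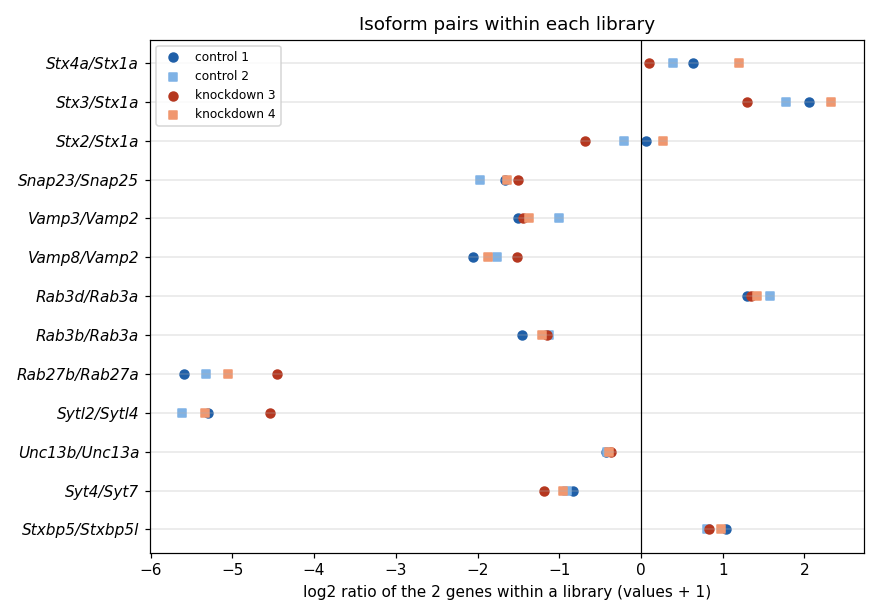
Log2 ratio of values + 1 between 2 related genes within each library, 1 point per library, for 13 of the 14 pairs (Cplx1 over Cplx2 is left out because Cplx1 held at most 8 reads). Circles and squares in blue are the controls and those in red and orange the knockdown libraries, which lie within or next to the spread of the controls in most pairs.

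Most exocytosis genes had the same library at the bottom of their range, control replicate 2. On the deposited values 38 of 44 genes, or 86.4%, had their lowest value in that library, against 63.0% of all genes tested. Control replicate 1 held the highest value in 25 of 44 genes, or 56.8%, against 31.1% of all genes. Thus the 2 controls enclosed the knockdown libraries for many members, as for Syt13, Pclo, Syt14 and Cadps. After median-ratio scaling, which multiplied control replicate 2 by 1.18 and the others by 0.928 to 0.964, the lowest value fell in control replicate 2 for 11 of 44 genes. It then fell in knockdown replicate 3 for 21 of 44 genes, or 47.7%, against 28.6% of all genes, while control replicate 1 still held the highest value in 23 of 44, or 52.3%, against 28.2% of all genes. Summed over the 45 genes the levels were 4008 and 3038 units in the control pools and 3515 and 3662 in the knockdown pools. As a share of the reads outside the 13 most abundant rows they were 0.600% and 0.570% in the control pools and 0.556% and 0.580% in the knockdown pools, and the groups overlapped. With the median-ratio multipliers applied, both knockdown sums lay below both control sums.

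**Figure D4:**
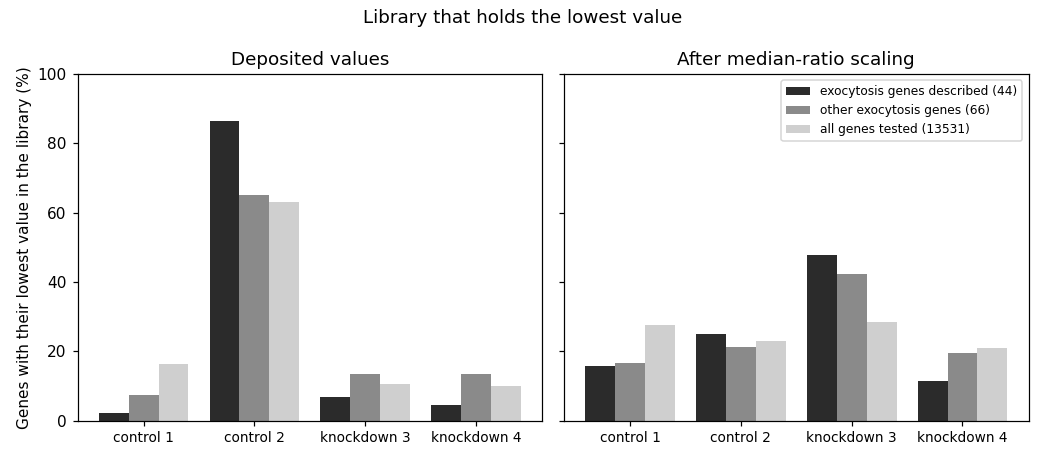
Share of genes, in percent, whose lowest value of the 4 libraries lay in each library, for the 44 tested exocytosis genes, 66 other tested exocytosis genes and all 13531 genes tested. On the deposited values control replicate 2 takes 86.4% of the exocytosis genes described, and after median-ratio scaling knockdown replicate 3 takes the largest share, 47.7%.

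A wider list of 79 further genes of granule and membrane traffic gave the same kind of result. Of these 66 could be tested, limma called 0 higher and 0 lower, and so did limma after scaling, edgeR and DESeq2. Unadjusted p-values under 0.05 were found for 2 of them by limma, 3 after scaling, 4 by edgeR and 1 by DESeq2, or 3.03%, 4.55%, 6.06% and 1.52%, against the all-gene shares of 10.3%, 10.2%, 10.3% and 5.39%. The median log2 fold change was -0.09 with 42 genes below and 24 above the median of all genes. The 2 genes with a limma p under 0.05 were Exoc3l, an exocyst relative, at 7.70 and 2.10 against 6.91 and 9.28 units, and Syt15, at 0.872 and 0 against 3.65 and 0.763 units. In both the groups overlapped. On the deposited values both knockdown libraries were above both controls in 14 of the 66 genes, or 21.2%, and below in 2, or 3.03%, against 34.9% and 4.49% of all genes. After scaling they were below in 22 of the 66 genes, or 33.3%, and above in 7, or 10.6%, against 20.0% and 20.4% of all genes. Vamp7 and Syt10 were listed at 0 in every library.

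Markers of some other cell types were called higher in the knockdown libraries. Of connective-tissue (stellate) markers limma called 7 of 9 higher and of endothelial markers 4 of 8. Of duct markers it called 4 of 9 higher and of macrophage markers 2 of 6 tested. None was lower, and of all genes 2.49% were called higher. The median log2 fold change was 1.27, 0.62 and 0.41 for the stellate, endothelial and duct markers. For the macrophage markers it was -0.08, and they summed to 57.2 and 50.8 against 72.9 and 58.0 units. Of the beta, alpha, delta, PP, acinar, Schwann, mast cell and neuron markers limma called 0. These counts are on the deposited values. The beta cell marker Mafa was called lower after median-ratio scaling (log2 fold change -0.54, limma adjusted p = 0.0215). It was also called lower by edgeR (adjusted p = 0.0439), while Ins1, Ins2 and Iapp were called by neither. The other beta cell markers are not given for these tests, nor are marker counts of the other cell types. Summed levels were 102 and 109 against 315 and 250.4 units for stellate cells, 150.4 and 135 against 305 and 233 for endothelium and 774 and 839 against 1590 and 1025 for duct cells. Acinar markers, of which 0 of 12 tested were called by limma, summed to 3016 and 6118 units in the control pools and 5308 and 2474 in the knockdown pools. Vamp8, Stx4a, Rab27b, Exoc1, Exoc6 and Sytl2, with estimates above the all-gene median, are genes that such cells also use. So are Vamp3, Exoc2, Exoc4, Exoc5, Nsf and Napa, with estimates below it. The part of those cells in the values of any of these genes was not tested. Beta cell markers summed to 99387 and 78523 units in the control pools and 83632 and 90809 in the knockdown pools. On the deposited values control replicate 1 was the highest and control replicate 2 the lowest library for them. The summed exocytosis genes had the same order of the 4 libraries. With the median-ratio multipliers applied, both knockdown sums lay below both control sums for the beta cell markers, as for the exocytosis genes. Of the mast cell markers Cpa3, Cma1, Mcpt4 and Tpsb2 were at 0 in every library, as was the neuronal marker Slc17a6.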

How the data were processed

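The members, the gene lists, the tests and the alternatives were chosen with earlier results of these data known. The authors deposited 1 table with a signal per gene and library, which in each library is a whole multiple of 1 step within 0.01 reads for 100% of the values, so that whole reads per 10000000 reads of the library total were recovered. The name of the table announces FPKM, but its values are not divided by length. The build mm10 and the tools STAR 2.5.1b, HOMER 4.9 and edgeR come per the submitters' processing notes, which give no roles. The deposited length column, which is another quantity than the signal, equals the genomic span for 99.2% of genes, so reads from introns seem to be included, and strand seems to be ignored. Of the 45 members 7 overlap another row.

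The test was limma 3.58.1 in R 4.3.3 with a mean-variance trend on log2(value + 1), over genes of 200 nt or longer whose mean over the libraries reached 1 unit, two-sided, with Benjamini-Hochberg adjustment over all genes at 0.05. The fit took the spread wholly from the trend over all genes (infinite prior degrees of freedom). Count tests on the recovered reads used edgeR 4.0.16 (quasi-likelihood, TMM) and DESeq2 1.42.0. The fits were also run on simulated data, whose outcome is not given here. Those data held the same gene proportions in every library of a group, so they cannot show how the fits behave on these libraries. Named genes are the 2 members highest per kb in each role, those with an unadjusted limma p under 0.05, the 10 with the largest change among members whose groups do not overlap, and members of the isoform pairs. One gene of the wider list, and the pair that holds it, is not reported here.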

Additional observations from a re-analysis of the deposited data

How the results depend on the processing

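The typical 95% interval of a member reached 1.39-fold on the deposited values and 1.24-fold after median-ratio scaling, which limits what 4 libraries can show. The 0 calls among the 44 members were the same after median-ratio scaling, quantile normalization, with edgeR and DESeq2, at pseudocounts of 0.25 and 5, with no filter on low values, with a mean of at least 5 units and with no trend. With a library left out, 0 to 3 members were called higher and 0 to 1 lower (3 higher without control replicate 1, Pclo lower without control replicate 2), and on the median-ratio scale, added after seeing the data, 0. Of the wider list 1 gene, Syt15, was called higher with no trend, and 0 to 4 with a library left out (Exoc3l, Erc1, Stx7 and Snapin without control replicate 1). On the median-ratio scale the fits without control replicate 1 or 2 called no gene of the whole table. Their 0 therefore says nothing about the members. A lone remaining library was assumed to vary like the others, and the cause of the calls with a library left out was not tested. The median of the members ranged from -0.11 to -0.02.

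Of 36 named genes tested, 18 kept their direction in each of the 17 alternatives that tested them, and 32 were called in none (Stxbp5, Syt14, Exoc1 and Pclo were called with a library left out). Quantile normalization gave log2 fold changes of -0.025 for Stx2, 0.11 for Syt7, 0.081 for Cplx2 and 0.041 for Syt14, and a pseudocount of 5 gave 0.011 for Syt14, 0.0042 for Syt7 and 0.0027 for Stxbp2, each with a changed sign. Rph3al, at 0.0033, lay so near 0 that it changed sign after median-ratio scaling (-0.0098), with edgeR (-0.0081), with DESeq2 (-0.0079) and at a pseudocount of 0.25 (-0.0064). With a library left out, on either scale, the log2 fold change ranged over the sign for 17 genes. The ranges were Stx1a -0.29 to 0.66, Stx2 -0.042 to 0.15, Stx3 -0.013 to 0.18, Snap23 -0.16 to 0.22, Vamp2 -0.078 to 0.096 and Vamp3 -0.34 to 0.048. Further ranges were Stxbp2 -0.16 to 0.10, Stxbp5 -0.10 to 0.28, Syt7 -0.092 to 0.023, Syt14 -0.26 to 0.22 and Unc13b -0.15 to 0.011. The remaining ones were Rab3c -0.089 to 0.31, Exoc3 -0.12 to 0.24, Napa -0.21 to 0.030, Pclo -0.46 to 0.059, Rab3b -0.24 to 0.0037 and Rph3al -0.062 to 0.050.

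No paired analysis was possible because the 2 groups share no replicate number. At a pseudocount of 5 Rab27b over Rab27a gave a difference of 0.37, and 13 of the 14 pairs moved by less than their spread in the 6 alternatives run for pairs (both pseudocounts and each library left out).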
